A study of Mus musculus with 36 samples.

Results

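Levels of 10 genes were described across the liver and visceral fat of mice: Axin2, Sp5, Tbx3, Nkd1, Notum, Rnf43, Znrf3, Lgr5, Glul and Lect2. They were chosen by name as genes that Wnt signaling switches on in hepatocytes or that mark the hepatocytes around the central vein, and they are 10 of the 56748 genes in the deposited expression table. They were named with results of these data in view, and their liver levels by diet and genotype are counted as used for the choice, so liver differences of these genes are given as description and without p-values. All 10 are protein-coding. In the GRCm39 coordinates of the table Axin2 lies at chr11:108811175-108841609, Sp5 at chr2:70305267-70308073, Tbx3 at chr5:119808734-119822789, Nkd1 at chr8:89247982-89321512 and Glul at chr1:153775690-153785469. Notum lies at chr11:120544614-120552001, Rnf43 at chr11:87553548-87626365, Znrf3 at chr11:5226324-5394847, Lgr5 at chr10:115286216-115423685 and Lect2 at chr13:56690277-56696315.

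The mice were male C57BL/6J animals, 16 weeks old at the start, kept for 16 weeks on normal chow (NCD) or on high-fat food (HFD). Every mouse carried loxP-flanked Mlkl alleles. MlklAdi-KO mice also carried Adipo-Cre, a Cre recombinase driven in mature adipocytes, and wild-type (WT) mice were littermates without Cre. A library was made from the liver and another from the epididymal visceral white adipose tissue (visWAT) of each of 18 mice: 5 WT and 5 MlklAdi-KO mice on HFD, and 4 WT and 4 MlklAdi-KO mice on NCD.

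Wnt ligands bind a Frizzled receptor and an Lrp co-receptor, which keeps β-catenin from being degraded so that it can act with TCF/LEF factors on target genes. R-spondins bind Lgr receptors and protect Frizzled from the ubiquitin ligases Rnf43 and Znrf3. In the liver, endothelial cells of the central vein are the known source of Wnt2, Wnt9b and Rspo3, and the hepatocytes next to them carry out glutamine synthesis, bile acid synthesis and drug metabolism, whereas hepatocytes near the portal vein run urea synthesis and gluconeogenesis.

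The promoters of the target genes are shown because TCF/LEF factors recognise a short core, searched here as CTTTGAA and CTTTGAT on both strands. RefSeq promoter windows of 250 bases before the start (build GRCm38.p6) were at hand for 6 of the 10 genes: Axin2, Sp5, Lect2, Glul, Nkd1 and Rnf43, the last with 2 starts. The core was found in Sp5, as CTTTGAT on the strand of the gene with its first base at position -104 from the start, and in Lect2, as CTTTGAT on the opposite strand, read as ATCAAAG, at position -32. Neither form was found in the windows of Axin2, Glul, Nkd1 and Rnf43. Over 32851 promoter windows of this length 7.48% held either form, 4.46% CTTTGAA and 3.21% CTTTGAT, so a match describes these letters and no more. Capitals mark the core in the sequences of Sp5 (chr2:70474673-70474922, plus strand), Lect2 (chr13:56548539-56548788, minus strand) and Axin2 (chr11:108920099-108920348, plus strand), each 5′ to 3′ in the direction of the gene.
Sp5: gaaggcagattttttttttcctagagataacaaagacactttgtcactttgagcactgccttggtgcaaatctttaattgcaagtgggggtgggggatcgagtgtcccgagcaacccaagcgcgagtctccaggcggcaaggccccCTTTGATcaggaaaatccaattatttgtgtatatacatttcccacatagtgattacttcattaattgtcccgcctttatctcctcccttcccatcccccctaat
Lect2: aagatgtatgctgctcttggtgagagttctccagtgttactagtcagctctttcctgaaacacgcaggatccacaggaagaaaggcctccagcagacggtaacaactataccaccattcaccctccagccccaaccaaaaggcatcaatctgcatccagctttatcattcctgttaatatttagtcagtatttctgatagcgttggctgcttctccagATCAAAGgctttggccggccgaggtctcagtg
Axin2: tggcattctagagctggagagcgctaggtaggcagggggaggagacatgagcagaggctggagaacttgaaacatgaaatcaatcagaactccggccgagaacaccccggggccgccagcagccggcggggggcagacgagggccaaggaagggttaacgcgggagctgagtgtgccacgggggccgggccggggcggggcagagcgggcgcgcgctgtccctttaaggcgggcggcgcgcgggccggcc

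Levels are FPKM as the authors deposited them, read counts scaled to gene length and to a library size. Relative to the reads on genes, that library size was 0.737 to 0.812 in liver and 1.01 to 1.40 in fat. In fat the WT NCD libraries of mice 183 and 182 were lowest, at 1.01 and 1.08. The same share of reads therefore gives a higher FPKM in liver than in fat, which bears on every level set between the tissues. Differences are between group means of log2(FPKM + 1) with the standard error (SE) from limma. That scale understates the change of genes near 1 FPKM, so ratios of mean FPKM are given beside it. A gene was called when its limma p-value, Benjamini-Hochberg adjusted over all genes tested, was under 0.05. Libraries held 20875463 to 30322171 reads on genes. In liver, Sp5 rested on 37 to 119 reads, Nkd1 on 87 to 193, Lgr5 on 76 to 273 and Axin2 on 106 to 424. With 1 library per mouse, spread between libraries holds both animal and technical differences.

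Mlkl, the targeted gene, was at 2.53 ± 0.166 FPKM (mean ± SD, n = 5) in MlklAdi-KO and 5.29 ± 0.653 FPKM (n = 5) in WT visWAT on HFD, a log2 difference of -0.83 ± 0.07 SE (adjusted p = 0.0016, limma with Benjamini-Hochberg adjustment). On NCD Mlkl in the visWAT library labelled WT NCD mouse 182 was 2.29 FPKM, inside the MlklAdi-KO range of 1.96 to 2.49, while the other WT NCD libraries were at 3.91 to 5.11. Mlkl in that library goes against its label, so the genotype of the mouse is in doubt in every WT NCD value that includes it. The same visWAT library held 327 FPKM of seminal vesicle and epididymis markers and the lowest adipocyte marker sum of WT NCD fat, 8741 FPKM. Their part in its Mlkl level was not tested. The liver library labelled WT NCD mouse 182 also stood apart, with a summed level of proliferation markers of 14.4 FPKM against at most 2.32 in every other liver. The visWAT library of WT NCD mouse 183 held 248000 FPKM of seminal vesicle and epididymis markers over 8 genes, and that of MlklAdi-KO HFD mouse 156 held 705 FPKM of hepatocyte markers. Values without these libraries are given beside the main results that they moved. Mlkl in liver ranged from 1.62 to 4.19 FPKM with all groups overlapping, and it checks no genotype label because Cre was driven in adipocytes.

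On HFD, 4 of the 10 genes were higher in every MlklAdi-KO liver than in every WT liver: Axin2, Sp5, Tbx3 and Rnf43. Over all genes tested in this comparison, the libraries of the groups did not overlap for 2.62%. By adjusted p, 3 of the 10 were called, Axin2, Sp5 and Tbx3, all higher, where 0.197% of all genes tested were called. The choice of the genes used this contrast, so nothing is read from these counts.

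Axin2 encodes a scaffold of the β-catenin destruction complex and is a feedback target found wherever the pathway is active. In liver it was at 2.56, 2.38, 2.29, 2.29 and 1.99 FPKM in MlklAdi-KO mice 151, 152, 153, 156 and 157 on HFD. In WT mice 154, 155, 161, 162 and 164 on HFD it was at 1.36, 1.39, 1.56, 1.32 and 1.14 FPKM. The mouse orders just given hold for the lists that follow. The lowest MlklAdi-KO liver was above the highest WT liver, and the mean levels of 2.30 ± 0.205 and 1.35 ± 0.149 FPKM (SD) gave a ratio of 1.70 and a log2 difference of 0.49 ± 0.07 SE.

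Sp5, a zinc finger transcription factor and direct Wnt target with the core letters in its promoter shown above, was at 2.83, 2.95, 2.98, 2.60 and 2.33 FPKM in the MlklAdi-KO livers on HFD. The WT livers on HFD were at 1.60, 1.14, 1.58, 1.10 and 1.46 FPKM. No WT library reached the lowest MlklAdi-KO library. The ratio of means was 1.99 and the log2 difference 0.66 ± 0.08 SE.

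Tbx3, a T-box repressor that β-catenin induces in liver, was at 10.1, 10.3, 9.31, 7.61 and 8.59 FPKM in MlklAdi-KO livers on HFD. In WT livers on HFD it was at 5.92, 3.98, 5.56, 4.09 and 4.71 FPKM. The groups were apart, with a ratio of means of 1.89 and a log2 difference of 0.80 ± 0.11 SE.

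Rnf43, the ubiquitin ligase that removes Frizzled from the cell surface, was at 7.14, 6.58, 6.52, 9.22 and 6.50 FPKM in MlklAdi-KO livers on HFD. The WT livers on HFD were at 3.26, 4.12, 4.88, 5.12 and 4.96 FPKM. Mouse 156 was the highest of its group and the groups did not overlap, with a ratio of 1.61 and a log2 difference of 0.59 ± 0.12 SE. Rnf43 was not called by limma or edgeR and was called by DESeq2. Leaving out each of the 10 livers in turn moved the log2 difference between 0.45 and 0.52 for Axin2, 0.61 and 0.70 for Sp5, 0.75 and 0.87 for Tbx3, and 0.50 and 0.63 for Rnf43. The call was less stable than these differences: without MlklAdi-KO mouse 151 or 153 none of the 10 genes was called by limma, and without WT mouse 162 or 164 only 1 was.

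The other 6 genes overlapped between the genotypes on HFD. Znrf3, the partner ligase of Rnf43, was at 1.86 to 2.87 FPKM in MlklAdi-KO and 1.70 to 2.75 FPKM in WT livers, a log2 difference of 0.12 ± 0.12 SE. Notum, a secreted enzyme that strips the lipid from Wnt ligands, was at 10.5 to 15.7 and 9.96 to 14.1 FPKM, with a difference of 0.25 ± 0.12 SE. Nkd1, which binds Dishevelled and dampens the signal, differed by 0.02 ± 0.08 SE. Lgr5, the R-spondin receptor, was at 0.542 to 0.968 FPKM in MlklAdi-KO and 0.414 to 1.13 FPKM in WT livers, and differed by 0.06 ± 0.13 SE. Of the feedback inhibitors, Axin2 and Rnf43 did not overlap between the genotypes, and Notum, Nkd1 and Znrf3 did.

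Glul, glutamine synthetase of the innermost pericentral hepatocytes, was at 334, 505, 516, 324 and 403 FPKM in MlklAdi-KO livers on HFD. In WT livers on HFD it was at 438, 450, 477, 522 and 516 FPKM. MlklAdi-KO mice 151, 156 and 157 were below every WT liver and mice 152 and 153 were within the WT range, and the log2 difference was -0.23 ± 0.14 SE. Lect2, a hepatocyte-secreted protein and β-catenin target with the core letters in its promoter, was at 140 to 179 FPKM in MlklAdi-KO and 124 to 162 FPKM in WT livers, a difference of 0.07 ± 0.09 SE. Glul thus had a lower mean in MlklAdi-KO livers, unlike Axin2, Sp5 and Tbx3, with groups that overlapped. The median log2 difference of the 10 genes was 0.18 against 0.00 over all genes tested.

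**Figure D1:**
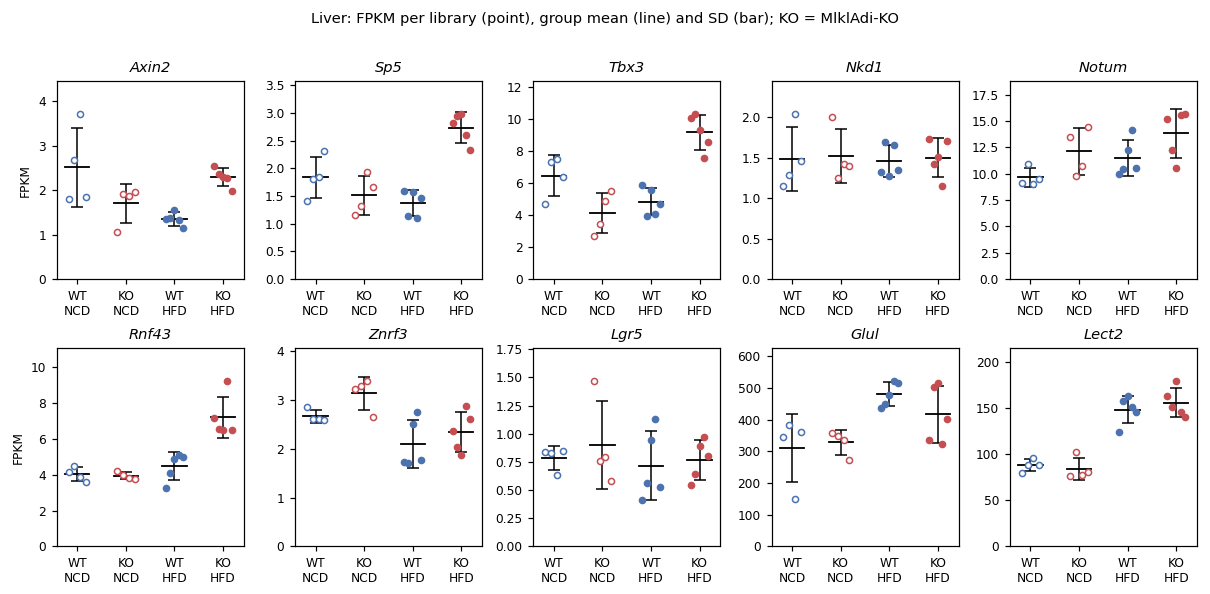
Liver FPKM of each of the 10 genes (vertical axis, linear, from 0) in WT and MlklAdi-KO mice on NCD (open points) and HFD (filled points), 1 point per library, with the group mean as a line and the SD as a bar. For Sp5, Tbx3 and Rnf43 the 5 MlklAdi-KO HFD points lie above all other livers, and for Lect2 both HFD groups lie above both NCD groups.

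On NCD the order of the genotypes was the opposite for Axin2, Tbx3 and Sp5, with wider spread. Axin2 was at 1.06, 1.92, 1.87 and 1.96 FPKM in MlklAdi-KO mice 166, 179, 197 and 199 and at 1.81, 2.68, 3.72 and 1.84 FPKM in WT mice 165, 180, 182 and 183. The log2 difference was -0.36 ± 0.19 SE, and -0.21 ± 0.16 SE without the library labelled WT NCD mouse 182. Tbx3 was at 2.71, 3.48, 4.88 and 5.50 FPKM against 4.69, 7.30, 7.49 and 6.36 FPKM, a difference of -0.55 ± 0.20 SE, and Sp5 at 1.16, 1.31, 1.93 and 1.67 FPKM against 1.41, 1.80, 1.84 and 2.31 FPKM, a difference of -0.18 ± 0.13 SE. For each of these genes the groups overlapped. Rnf43 was at 3.74 to 4.19 FPKM in MlklAdi-KO and 3.58 to 4.49 FPKM in WT livers, with a difference of -0.02 ± 0.08 SE.

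Of the 10 genes 0 were called on NCD by limma, 0 by edgeR and 0 by DESeq2, 2 had an unadjusted limma p under 0.05, and 0 were free of overlap. Over all genes tested 0.00758% were called, 574 of 13193 had an unadjusted limma p under 0.05, and 2.8% were free of overlap. Notum was at 9.74 to 14.4 FPKM in MlklAdi-KO and 9.02 to 10.9 FPKM in WT livers, a difference of 0.29 ± 0.12 SE that was close to its HFD value. The difference in Glul of 0.17 ± 0.28 SE rested on the library labelled WT NCD mouse 182, where Glul was 149 FPKM against 345 to 382 FPKM in the other WT NCD livers, and was -0.15 ± 0.10 SE without it.

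**Figure D2:**
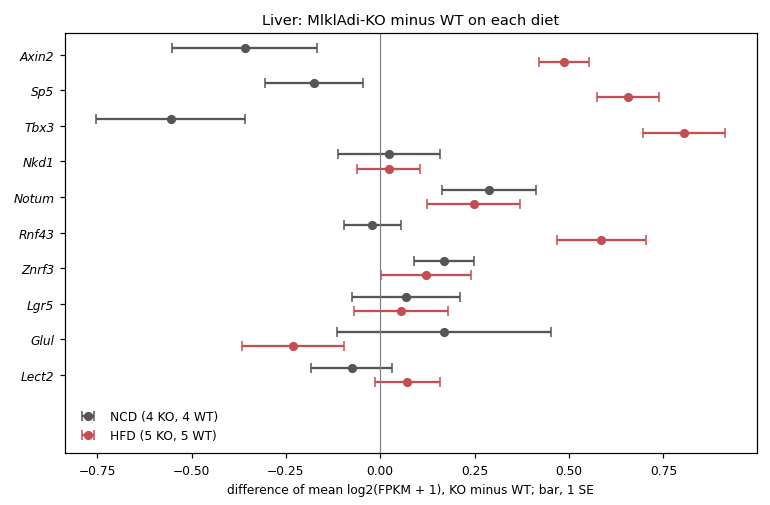
Log2 difference between MlklAdi-KO and WT livers for each gene on NCD (grey, 4 against 4) and HFD (red, 5 against 5), with a bar of 1 SE on a horizontal axis of mean log2(FPKM + 1). Axin2, Sp5 and Tbx3 lie below 0 on NCD and above 0 on HFD, Rnf43 is near 0 on NCD, Glul lies above 0 on NCD and below 0 on HFD, and the bars of the 2 diets overlap for the other 5 genes.

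The difference between the genotype effects on the 2 diets, an interaction, was 0.85 ± 0.19 SE for Axin2, 1.36 ± 0.23 SE for Tbx3, 0.83 ± 0.15 SE for Sp5 and 0.61 ± 0.15 SE for Rnf43 on the log2 scale. It was -0.40 ± 0.31 SE for Glul and between -0.05 and 0.15 for the other 5 genes. Limma called 0 of the 10 genes and edgeR 0, where limma called 0.0151% of all genes tested. DESeq2 called 4, Axin2, Tbx3, Sp5 and Rnf43, beside 58 of the 29714 genes in its fit. These 4 also had an unadjusted limma p under 0.05, as did 811 of all 13248 genes tested. The choice of the genes used these liver values, so nothing is read from these counts. Without the library labelled WT NCD mouse 182 the values were 0.69 for Axin2, 1.29 for Tbx3 and -0.08 for Glul.

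Between diets, different members were called in the 2 genotypes, and whether the diet effects differed is covered by the interaction above. In WT livers 2 of the 10 were called between HFD and NCD, Axin2 lower and Lect2 higher on HFD, where 25.3% of all genes tested were called. In MlklAdi-KO livers 4 were called, Tbx3, Sp5, Rnf43 and Lect2, all higher on HFD, where 22.2% of all genes were called. The groups did not overlap for 3 of the genes in WT livers (24.8% of all genes) and 5 in MlklAdi-KO livers (21.5% of all genes). The median log2 difference of the 10 genes was -0.04 in WT and 0.31 in MlklAdi-KO livers, against 0.00 over all genes in both. Both comparisons are with their own NCD livers, and they share libraries with the genotype comparisons.

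Lect2 was higher on HFD in both genotypes. It was at 75.8 to 102 FPKM on NCD and 140 to 179 FPKM on HFD in MlklAdi-KO livers, and at 79.7 to 96.2 FPKM on NCD and 124 to 162 FPKM on HFD in WT livers. The log2 difference between diets was 0.89 ± 0.10 SE in MlklAdi-KO and 0.74 ± 0.09 SE in WT mice. Every HFD liver was above every NCD liver.

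Glul was also higher on HFD in WT livers, by 0.72 ± 0.25 SE on the log2 scale with no overlap, and by 0.40 ± 0.07 SE when the library labelled WT NCD mouse 182 was left out. In MlklAdi-KO livers Glul was at 272 to 359 FPKM on NCD and 324 to 516 FPKM on HFD, a difference of 0.32 ± 0.16 SE with overlapping groups. Znrf3 had lower means on HFD in both genotypes, with differences of -0.26 ± 0.11 SE in WT and -0.31 ± 0.10 SE in MlklAdi-KO livers and overlap in both. EdgeR and DESeq2 called Znrf3 in MlklAdi-KO livers and limma did not.

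Axin2, Sp5 and Tbx3 had lower means on HFD than NCD in WT livers and higher means in MlklAdi-KO livers. Axin2 differed by -0.55 ± 0.15 SE in WT mice, or -0.39 ± 0.10 SE without the library labelled WT NCD mouse 182, and by 0.30 ± 0.11 SE in MlklAdi-KO mice, with no overlap in either genotype. Tbx3 differed by -0.35 ± 0.14 SE in WT mice, where the groups overlapped, and by 1.01 ± 0.16 SE in MlklAdi-KO mice, where the mean of 9.18 FPKM on HFD was 2.22 times that of 4.14 FPKM on NCD. Sp5 differed by -0.25 ± 0.11 SE with overlap and 0.58 ± 0.10 SE without. Rnf43 differed by 0.11 ± 0.11 SE in WT and 0.72 ± 0.10 SE in MlklAdi-KO livers.

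Across the 4 liver groups, the MlklAdi-KO HFD livers ranked first for Tbx3, Sp5 and Rnf43, and their range did not reach the next group in any of these. The next neighbours in the order, WT NCD, MlklAdi-KO NCD and WT HFD in differing positions, overlapped for all 3 genes. Axin2 was highest in WT NCD livers at 2.51 ± 0.897 FPKM (SD, n = 4), which overlapped MlklAdi-KO HFD at 2.30 ± 0.205 FPKM. The MlklAdi-KO NCD livers at 1.70 ± 0.429 FPKM were below the MlklAdi-KO HFD range, and overlapped WT HFD at 1.35 ± 0.149 FPKM. Nkd1 had group means between 1.46 and 1.52 FPKM, with all groups overlapping.

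**Figure D3:**
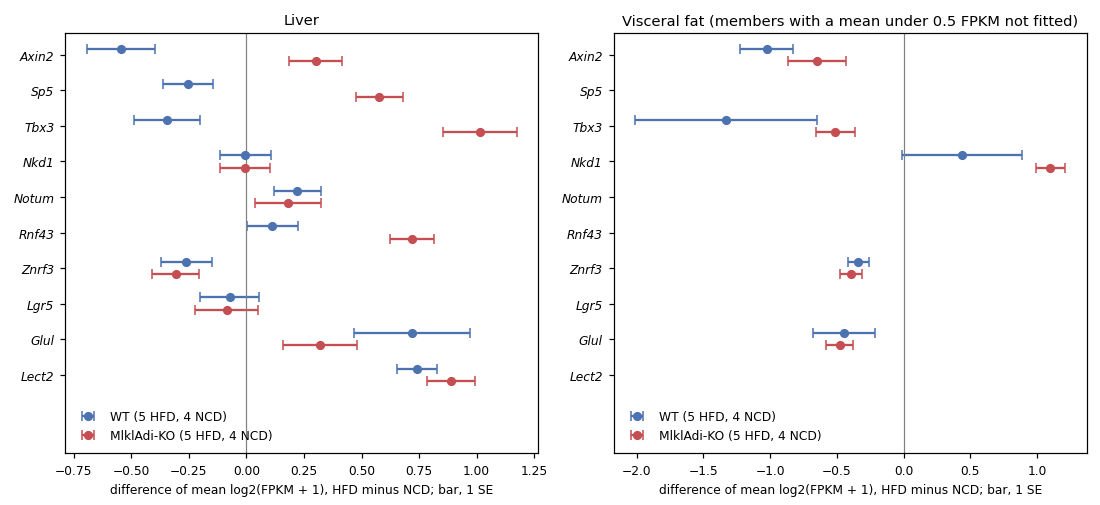
Log2 difference between HFD and NCD for each gene in liver and in visceral fat, in WT (blue) and MlklAdi-KO mice (red), with a bar of 1 SE on an axis of mean log2(FPKM + 1). In liver Lect2 is near 0.74 in WT and 0.89 in MlklAdi-KO mice while Axin2, Sp5 and Tbx3 lie on opposite sides of 0, and in fat Axin2, Tbx3, Znrf3 and Glul lie below 0 and Nkd1 above it.

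Markers of other cell types were read beside these liver results. On HFD the summed level of 6 adipocyte markers was 89.9 to 157 FPKM in WT livers and 10.6 to 118 FPKM in MlklAdi-KO livers, with mouse 153 the highest of the latter. The markers were Adipoq, Plin1, Lep, Cidec, Fabp4 and Cfd, and which liver cells expressed them was not tested. Hepatic stellate cell markers over 7 genes summed to 98.4 to 124 FPKM in WT and 70.3 to 107 FPKM in MlklAdi-KO livers. No marker of either list was at 0 in all HFD livers. Endothelial markers over 10 genes overlapped, at 51.9 to 66.7 FPKM in WT and 54.7 to 85.1 FPKM in MlklAdi-KO livers, as did the 6 measured hepatocyte markers at 37830 to 43630 and 40660 to 50210 FPKM. The part of adipocyte and stellate cell markers in the differences of Axin2, Sp5, Tbx3 and Rnf43 was not tested. Without MlklAdi-KO mouse 153 the 4 log2 differences were 0.49 for Axin2, 0.63 for Sp5, 0.80 for Tbx3 and 0.61 for Rnf43. Between diets, adipocyte markers were at 7.83 to 27.7 FPKM in WT livers on NCD, below all WT livers on HFD, and hepatocyte markers at 51960 to 63080 FPKM on NCD were above all livers on HFD. Their part in the diet differences was not tested. In bulk tissue, fewer cells of a type and less RNA per cell cannot be told apart.

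The ligands of the central vein endothelium were not called between any liver groups. Wnt2 was at 0.968 to 2.33 FPKM in MlklAdi-KO and 0.779 to 1.61 FPKM in WT livers on HFD, a log2 difference of 0.22 ± 0.16 SE (adjusted p = 0.61, limma with Benjamini-Hochberg adjustment). Rspo3 was at 1.38 to 2.70 and 1.81 to 2.35 FPKM, a difference of -0.08 ± 0.13 SE (adjusted p = 0.85, limma). Wnt9b had group means of 0.327 to 0.586 FPKM and was tested in the NCD genotype comparison alone, at -0.10 ± 0.15 SE. Wnt2, Rspo3 and, where tested, Wnt9b were called in none of the 5 liver comparisons, which does not show that they were equal.

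The other genes of the Wnt pathway and of liver zonation were read in 8 lists that held 134 genes in all. These lists were also chosen with earlier results of these data known. Their p-values and counts, in liver and in fat, are therefore not independent support. In the HFD genotype comparison 0 of the 88 tested were called by limma and 0 by edgeR. DESeq2 called 3, Cyp1a2, Fzd5 and Fzd7, beside 259 of the 27841 genes in its fit. An unadjusted limma p under 0.05 was found for 11 of the 88, beside 1664 of all 13215 genes tested. On NCD 0 of 89 were called by limma, edgeR and DESeq2. An unadjusted limma p under 0.05 was found for 7, beside 574 of all 13193 genes tested. Between diets 34 of 88 were called in WT livers and 23 of 87 in MlklAdi-KO livers, beside the 25.3% and 22.2% over all genes.

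Among ligands, Wnt5b, which mainly signals without β-catenin, rose on HFD from a mean of 2.07 to 6.85 FPKM in WT livers, a log2 difference of 1.35 ± 0.12 SE (adjusted p = 0.0001, limma). In MlklAdi-KO livers it rose from 1.74 to 6.44 FPKM (1.46 ± 0.15 SE, adjusted p = 0.00022). It was 1 of 3 ligands or R-spondins measured above the filter and the only one of them called in either genotype. Among the 11 receptors and co-receptors tested, 3 rose and 3 fell in WT livers and 1 rose and 1 fell in MlklAdi-KO livers. Fzd4, a Frizzled receptor, rose from 4.57 to 13.4 FPKM in WT livers (1.38 ± 0.08 SE, adjusted p = 1.76e-05, limma) and from 4.20 to 15.2 FPKM in MlklAdi-KO livers (adjusted p = 0.0002, limma). Lrp5, a Wnt co-receptor, fell from 13.0 to 8.03 FPKM in WT and from 12.3 to 7.74 FPKM in MlklAdi-KO livers. Fzd5 fell in WT livers from 2.33 to 1.06 FPKM (-0.69 ± 0.09 SE, adjusted p = 0.00063, limma).

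Inside the cell, 3 of 15 genes of Wnt secretion and cytoplasmic signaling fell in WT livers, Axin1, Dvl1 and Dvl3, by 0.22 to 0.26 on the log2 scale. When values were rescaled so that all libraries have the same total (TPM), Dvl1 stayed called in WT livers. Axin1 (-0.23, adjusted p = 0.081, limma) and Dvl3 (-0.19, adjusted p = 0.072, limma) did not. In MlklAdi-KO livers 2 fell, Dvl1 and Porcn. Of 10 TCF/LEF factors and coactivators 1 rose and 3 fell in WT livers, among them the corepressor Tle1 from 11.9 to 7.89 FPKM and Tcf7l1 from 2.71 to 1.95 FPKM, while Tle3 rose from 2.18 to 3.14 FPKM. In MlklAdi-KO livers 2 of the 10 fell, Tle1 and Tcf7l1. Of 9 other general targets Sox9 fell in WT livers from 3.93 to 1.07 FPKM (-1.19 ± 0.22 SE, adjusted p = 0.0042, limma) and Ccnd1, cyclin D1, fell in MlklAdi-KO livers from 6.38 to 2.85 FPKM. Sox9, which bile duct cells also express, was at 6.83 FPKM in the liver library labelled WT NCD mouse 182 and 2.63 to 3.55 FPKM in the other WT NCD livers, and 5 cholangiocyte markers summed to 160 FPKM there against 19.9 to 35.5 FPKM. Without that library Sox9 differed by -0.94 ± 0.12 SE (adjusted p = 0.00086, limma), and the part of these markers was not tested. Of the secreted and receptor-level inhibitors 0 of 3 were called in WT livers, and Kremen1 rose in MlklAdi-KO livers from 3.0 to 3.81 FPKM.

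The zonation lists were mixed. Of 17 pericentral genes 7 rose and 4 fell on HFD in WT livers (median log2 difference 0.63) and 8 rose and 2 fell in MlklAdi-KO livers (median 0.54), against a median of 0.00 over all genes. Cyp7a1, the rate-limiting enzyme of bile acid synthesis, rose from 23.8 to 63.9 FPKM in WT livers (1.49 ± 0.26 SE, adjusted p = 0.0036, limma). Gulo, the last enzyme of vitamin C synthesis, rose from 192 to 299 FPKM in WT and from 184 to 324 FPKM in MlklAdi-KO livers, whereas Cyp3a11, a drug-metabolising cytochrome, fell in MlklAdi-KO livers from 485 to 224 FPKM. Of 20 periportal genes 4 rose and 4 fell in WT livers (median -0.22) and 3 rose and 1 fell in MlklAdi-KO livers (median 0.06). Asl of the urea cycle rose from 120 to 217 FPKM in WT and from 106 to 214 FPKM in MlklAdi-KO livers. Pck1, the gluconeogenic enzyme, fell in MlklAdi-KO livers from 1557 to 629 FPKM.

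**Figure D4:**
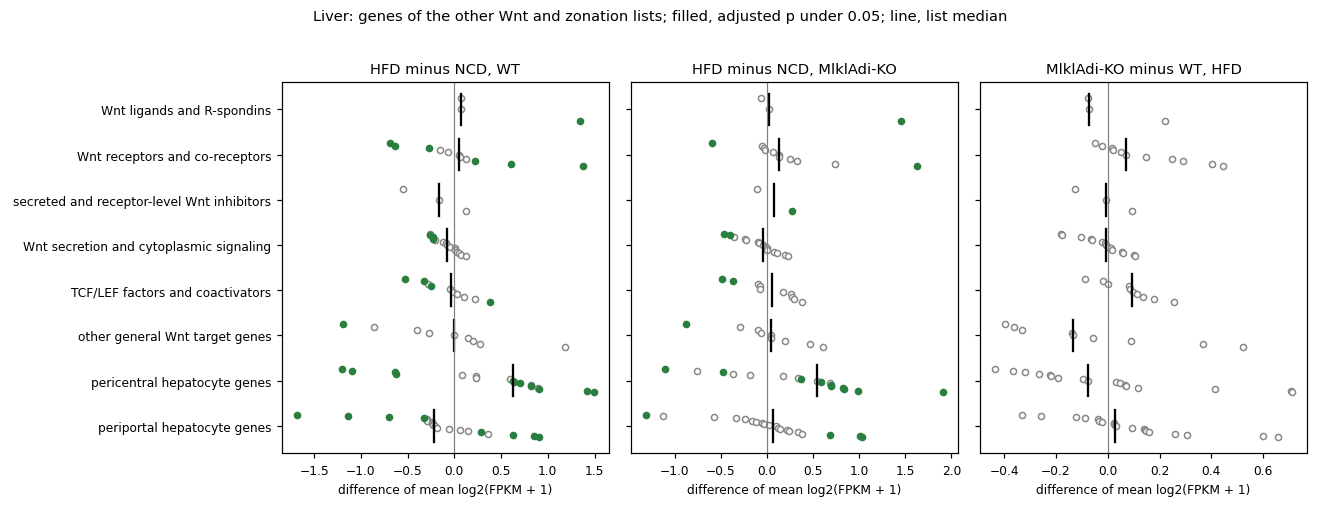
Log2 differences in liver for each tested gene of the 8 other Wnt and zonation lists, for HFD against NCD in WT and in MlklAdi-KO mice and for MlklAdi-KO against WT on HFD. Each point is a gene, filled points have an adjusted p under 0.05 in limma, and the line is the list median. In the genotype panel no point is filled, and the pericentral medians lie at 0.63, 0.54 and -0.08 from left to right.

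Visceral fat was the contrast to liver, on FPKM whose library sizes differ between the tissues as given above. In fat Sp5, Rnf43, Lect2 and Notum had medians between 0.0289 and 0.0462 FPKM over 18 libraries, and all 18 fat libraries were below all 18 livers for these genes. Lgr5 had a median of 0.00322 FPKM and was below all livers in 17 libraries. These 5 genes did not reach the mean of 0.5 FPKM required for testing within fat. Several of their highest fat values were in libraries that also held markers of other tissues, whose part was not tested. Rnf43 was at 2.55 FPKM and Lgr5 at 0.452 FPKM in WT NCD mouse 183, and Lect2 was at 1.96 FPKM in MlklAdi-KO HFD mouse 156 and 0.729 FPKM in WT HFD mouse 164, whose hepatocyte markers summed to 705 and 95.2 FPKM.

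Nkd1 was the reverse, at 2.52 to 21.7 FPKM in fat and 1.15 to 2.04 FPKM in liver, with all 18 fat libraries above all livers. Axin2 was at 1.37 to 6.34 FPKM in fat and above all livers in 6 libraries. Glul was at 190 to 588 FPKM in fat, overlapping its liver range of 149 to 522 FPKM. Tbx3 was below all livers in 16 fat libraries and above all of them in 1, WT NCD mouse 183 at 31.5 FPKM, and Znrf3 was below all livers in 18.

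**Figure D5:**
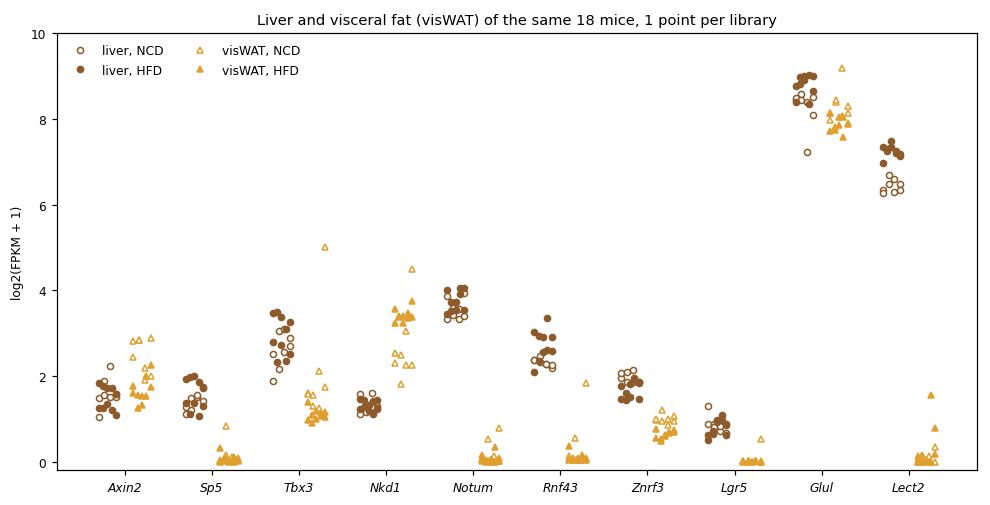
Levels of the 10 genes as log2(FPKM + 1) in the liver (brown circles) and visceral fat (yellow triangles) of the same 18 mice, open for NCD and filled for HFD, 1 point per library. Sp5, Notum, Rnf43, Lgr5 and Lect2 are near 0 in most fat libraries, Nkd1 is higher in all fat libraries than in liver, and Glul overlaps.

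Within fat, 5 genes were tested between diets. Whether their fat values were in view when the genes were chosen is not known here, so the p-values below are not independent support. In WT fat 2 of the 5 were called, Axin2 and Znrf3, both lower on HFD, where 37.8% of all genes tested were called. In MlklAdi-KO fat all 5 were called, with Axin2, Tbx3, Glul and Znrf3 lower and Nkd1 higher, where 43.7% of all genes were called.

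Axin2 fell in fat of both genotypes. In WT fat it was at 4.40, 6.17, 2.76 and 6.34 FPKM on NCD and 2.02, 1.37, 1.505, 1.90 and 2.37 FPKM on HFD, without overlap, a log2 difference of -1.03 ± 0.20 SE (adjusted p = 0.0032, limma). In MlklAdi-KO fat it was at 6.09, 6.21, 3.54 and 2.99 FPKM on NCD and 2.38, 1.92, 1.91, 2.97 and 3.75 FPKM on HFD, with overlap, a difference of -0.65 ± 0.22 SE (adjusted p = 0.038, limma). The latter call was lost when MlklAdi-KO mouse 151, 152, 153, 166 or 179 was left out. So Axin2 was lower on HFD in WT liver and in WT and MlklAdi-KO fat. In MlklAdi-KO liver its mean was higher on HFD, a difference that limma, edgeR and DESeq2 did not call.

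Nkd1 rose in MlklAdi-KO fat, from 4.77, 4.63, 3.74 and 3.75 FPKM on NCD to 10.8, 9.31, 8.46, 10.03 and 12.6 FPKM on HFD, a log2 difference of 1.10 ± 0.11 SE (adjusted p = 0.00028, limma). In WT fat it was at 3.92, 2.52, 7.26 and 21.7 FPKM on NCD and 8.37, 9.61, 9.53, 9.18 and 9.43 FPKM on HFD, a difference of 0.44 ± 0.45 SE (adjusted p = 0.48, limma), and -0.02 in edgeR. The 2 highest NCD values were those of the library labelled WT NCD mouse 182 and of mouse 183. Without mouse 183 the difference was 0.96 ± 0.23 SE (adjusted p = 0.0088, limma), and without both it was 1.29 ± 0.12 SE (adjusted p = 0.00012, limma).

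Tbx3 fell in MlklAdi-KO fat, from 1.47 to 3.34 FPKM on NCD to 1.07 to 1.63 FPKM on HFD (-0.51 ± 0.15 SE, adjusted p = 0.021, limma). In WT fat its difference of -1.33 ± 0.68 SE (adjusted p = 0.15, limma) included mouse 183 at 31.5 FPKM, and was -0.44 ± 0.10 SE (adjusted p = 0.0062, limma) without it. Znrf3 fell in both, to 0.3999 to 0.693 FPKM on HFD from 0.819 to 1.29 FPKM on NCD, by 0.34 in WT (adjusted p = 0.0077, limma) and 0.39 in MlklAdi-KO fat (adjusted p = 0.0049, limma) on the log2 scale. In WT fat Znrf3 was no longer called when values were rescaled so that all libraries have the same total (TPM), at -0.17 ± 0.16 SE (adjusted p = 0.43, limma). Glul fell in MlklAdi-KO fat from 270 to 349 FPKM to 190 to 234 FPKM (-0.48 ± 0.10 SE, adjusted p = 0.0052, limma). In WT fat Glul differed by -0.45 ± 0.23 SE (adjusted p = 0.16, limma), where the library labelled WT NCD mouse 182 held 588 FPKM. Without that library the difference was -0.19 ± 0.13 SE (adjusted p = 0.27, limma), without it and mouse 183 it was -0.20, and on the TPM scale it was 0.03. That rescaling moved the median of all genes in this comparison to 0.35, so Glul and Znrf3 lay below the median on both scales.

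Between genotypes the fat values of the 5 genes tested overlapped. Lect2, under the filter on low values, was listed at 0 in all WT NCD fat libraries. In MlklAdi-KO NCD fat it was at 0.0332 to 0.263 FPKM, on 1 to 7 reads. Hepatocyte markers there summed to at most 68.3 FPKM, in mouse 199, against at most 18.2 FPKM in WT NCD fat, and their part was not tested. On HFD 0 of the 5 genes tested were called by limma, 0 by edgeR and 0 by DESeq2, where limma called 0.0215% of all genes. An unadjusted limma p under 0.05 was found for 1 of the 5, beside 3003 of all 13963 genes tested. Axin2 was at 1.91 to 3.75 FPKM in MlklAdi-KO and 1.37 to 2.37 FPKM in WT fat (0.33 ± 0.15 SE, adjusted p = 0.23, limma). On NCD 0 of 5 were called by limma, edgeR and DESeq2, 0 had an unadjusted p under 0.05, and 0% of all genes were called. Macrophage markers over 8 genes summed to 26.3 to 60.0 FPKM in NCD fat and 128 to 609 FPKM in HFD fat, and 6 adipocyte markers to 8741 to 19980 and 4409 to 10960 FPKM. The part of these markers in the diet differences was not tested.

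In WT mice the liver and the fat of the same mouse were compared in 1 model with the mouse as a block. This contrast holds the liver values by diet that count as used for the choice of the genes, so its values are given as description, without p-values. Of the 9 genes tested 1 was called by limma, Lect2, beside 36.4% of all genes, and nothing is read from that count. EdgeR called 0 and DESeq2 called 1, Glul. For Lect2 the log2 difference between the diets was higher in liver than in fat by 0.58 ± 0.19 SE. Lect2 was listed at 0 in all 4 WT NCD fat libraries, and its difference reversed to -3.85 in edgeR and -0.79 in DESeq2. Axin2 differed by 0.48 ± 0.31 SE, Glul by 1.17 ± 0.46 SE and Nkd1 by -0.44 ± 0.43 SE, none of them called by limma. Without the library pair labelled WT NCD mouse 182, Axin2 differed by 0.83 ± 0.18 SE and Glul by 0.59 ± 0.14 SE, and both passed the limma threshold. Without mouse 183 Nkd1 differed by -0.97 ± 0.17 SE, past the threshold, Lect2 no longer passed it at 0.58 ± 0.21 SE, and Axin2 differed by 0.27 ± 0.31 SE and Glul by 1.37 ± 0.49 SE.

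Among the other Wnt genes of fat, Sfrp5, a secreted decoy that binds Wnt ligands, rose on HFD from a mean of 15.9 to 189 FPKM in WT fat (4.55 ± 0.84 SE, adjusted p = 0.0023, limma) and from 24.0 to 272 FPKM in MlklAdi-KO fat (3.46 ± 0.33 SE, adjusted p = 0.00023, limma). The inhibitor Trabd2b fell in WT fat from 7.34 to 3.38 FPKM and Sfrp4 rose in MlklAdi-KO fat from 1.01 to 3.69 FPKM. The ligand Wnt11 rose from 1.04 to 2.69 FPKM in WT and from 1.49 to 3.22 FPKM in MlklAdi-KO fat. Tcf7l2, a TCF factor, fell from 3.39 to 2.04 FPKM and from 3.95 to 2.07 FPKM. In WT fat neither Trabd2b (-0.61, adjusted p = 0.10, limma) nor Tcf7l2 (-0.21, adjusted p = 0.48, limma) was called on the TPM scale. Fzd4, which rose in liver, fell in MlklAdi-KO fat from 68.6 to 40.5 FPKM. Over the 8 lists 29 of 80 genes tested were called in WT fat and 29 of 84 in MlklAdi-KO fat between diets, beside 37.8% and 43.7% of all genes, and 0 between genotypes on either diet.

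Variation among livers of the same group gave a further description. After each group mean was taken off, the 5 of 11360 genes with the highest Pearson r to Axin2 over 18 livers were Atp6v1e1 at 0.80, Trim24 at 0.80, Cyp2c68 at 0.80, Sub1 at 0.79 and Slc35c2 at 0.79. Without the library labelled WT NCD mouse 182 the r values were 0.59 to 0.68 and 0 of these 5 remained in the top 5. Tbx3 had r = 0.66 with Axin2 (rank 81) and 0.68 without that library. Glul had -0.63, and -0.19 without it. Tbx3 and Sp5 had r = 0.79, and 0.81 without it, Rnf43 and Znrf3 had 0.62, and Lgr5 and Znrf3 had 0.63. Among other pairs, Axin2 had r = 0.31 with Sp5, -0.04 with Rnf43 and -0.46 with Lgr5. Rnf43 had -0.40 with Tbx3, -0.35 with Sp5 and 0.54 with Lgr5, and Tbx3 had -0.61 with Lgr5. These livers share sequencing depth and composition effects, and the values are given with no test.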

How the data were processed

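The authors sequenced RNA from liver and visceral fat and, per the labels, counted reads per gene with featureCounts 1.5.0-p3. The authors deposited FPKM (normalised to gene length and a library size, as given above) and gene length in 1 table. Raw read counts were in 4 tables of comparisons beside the authors' fold changes and p-values, which were not used. A further 72 per-sample columns that match no library here and the pathway tables were also left out. Gene coordinates in the table follow GRCm39. The aligner's settings for strand are not given in the sources used here. FPKM values gave back whole reads (100% within 0.01 of a read, 100% equal to the deposited counts). Log2(FPKM + 1) was fitted with limma 3.58.1 (R 4.3.3, eBayes with trend) over genes with a mean of at least 0.5 FPKM in the libraries compared, with Benjamini-Hochberg adjustment and a threshold of 0.05. Alternatives were edgeR 4.0.16 (quasi-likelihood) and DESeq2 1.42.0 on the recovered counts, a pseudocount of 0.1, other filters, rescaling to TPM, all 18 libraries of a tissue in 1 fit, and leaving out each library. Tables were made with Python 3.11.15, pandas 2.3.3 and numpy 2.4.6. The fits were tested on simulated data.

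The members and gene lists were chosen with earlier results of these data known. All 10 genes, Mlkl, Wnt2, Wnt9b and Rspo3 were named, and from each list up to 3 called genes per liver comparison and 2 per fat comparison, by smallest adjusted p, where 1 group's mean reached 1 FPKM. Cyp1a2, Fzd5 and Fzd7 in the HFD genotype comparison were named after their values were seen. Promoters came from RefSeq tables of build GRCm38.p6, and no coordinate was carried between builds.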

Additional observations from a re-analysis of the deposited data

Results flagged for a closer look

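Within each group of 4 or 5 libraries, the highest or lowest value of each gene was compared with the others by Dixon's ratio at its 95% critical value. Of 79 groups examined 17 held such a value, where chance gives about 1 in 20 for independent, normally distributed values. The groups share libraries and many fat values rest on few reads, so nothing is read from that count.

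In liver, Axin2 was at 1.06 FPKM in MlklAdi-KO NCD mouse 166 against 1.87 to 1.96 in its group. The library labelled WT NCD mouse 182 was low in Glul, at 149 FPKM against 345 to 382, and in Lgr5, at 0.630 FPKM against 0.827 to 0.846. Rnf43 was at 9.22 FPKM in MlklAdi-KO HFD mouse 156 against 6.50 to 7.14. Znrf3 was at 2.86 FPKM in WT NCD mouse 165 against 2.59 to 2.61.

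In fat, WT NCD mouse 183, the library with seminal vesicle markers, was high in Tbx3 at 31.5 FPKM, Rnf43 at 2.55 FPKM, Lgr5 at 0.452 FPKM and Notum at 0.732 FPKM. MlklAdi-KO HFD mouse 156 was high in Lect2 at 1.96 FPKM and Notum at 0.268 FPKM, and WT HFD mouse 164 in Lect2 at 0.729 FPKM. Both libraries held hepatocyte markers, and their part was not tested. MlklAdi-KO NCD mouse 179 was high in Sp5 at 0.790 FPKM, Rnf43 at 0.472 FPKM and Notum at 0.446 FPKM, and WT HFD mouse 154 in Sp5 at 0.251 FPKM and Rnf43 at 0.292 FPKM.

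The diet effect of Lect2 in WT mice was larger in liver than in fat by 0.58 on the log2 scale in limma, and reversed in edgeR and DESeq2. Axin2 moved in opposite directions with diet in WT and MlklAdi-KO livers, with no overlap in either genotype. The MlklAdi-KO difference was not called by limma, edgeR or DESeq2. Its lowest HFD liver was at 1.99 FPKM and its highest NCD liver at 1.96 FPKM. The interaction of 0.85 ± 0.19 SE was not called by limma or edgeR and was called by DESeq2.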

How the results depend on the processing

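Of 1345 recalculated differences of the 10 genes, 1284 stayed within the spread of the first value, 59 moved and 2 reversed, and of 220 recalculated counts 175 stayed within 1.5 times and 45 moved. A reversal was counted only for differences called in the main fit, and those counted were Lect2 between tissues, at -3.85 in edgeR and -0.79 in DESeq2. Differences not called also changed sign, among them the liver interaction of Nkd1 in 10 of 24 settings and of Lgr5 in 7 of 23. The cause of the changes was not tested. Without a filter on low values 1 of the 10 genes was called between diets in WT liver, 0 between genotypes on HFD in liver, and 3 between diets in MlklAdi-KO fat. A minimum mean of 1 FPKM gave 1 in the interaction and 1 between diets in WT fat, and DESeq2 gave 4 in the interaction. Leaving out each library gave 1 to 3 called between diets in WT liver (1 without WT HFD mouse 164 or WT NCD mouse 180), 0 to 3 between genotypes on HFD in liver, 0 to 2 in the interaction (2 without WT NCD mouse 165, 1 without MlklAdi-KO NCD mouse 199), 2 to 4 between diets in WT fat (4 without WT NCD mouse 183, and 4 without mice 182 and 183), and 4 to 5 between diets in MlklAdi-KO fat.

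Liver and fat of the same mouse pair the libraries in the comparison of tissues. With no mouse block 2 genes were called against 1 with it, and 0 with a pseudocount of 0.1, without a filter, or in edgeR. Leaving out each mouse gave 0 to 3, with 0 for 6 of the WT mice and 3 without the mouse labelled WT NCD 182. Between groups of 1 tissue no paired analysis was possible because the mouse numbers are not shared.

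For the other pathway genes DESeq2 called 38 between diets in MlklAdi-KO liver, 3 between genotypes on HFD and 3 in the interaction, where limma called 23, 0 and 0. Of the 5 genes most like Axin2, 2 remained by Spearman's rho, 2 on the TPM scale, and 0 to 5 without 1 library.

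Over all genes, 26 called between genotypes on HFD in liver became 7 without a filter, 259 in DESeq2 and 9 to 37 without 1 library. On NCD in liver 1 became 3 without a filter, 15 in DESeq2, 3 with all 18 livers in 1 fit and 1 to 7 without 1 library. In the interaction 2 became 4 at a mean of 1 FPKM, 58 in DESeq2 and 2 to 5 without 1 library. Between genotypes in fat, 3 on HFD became 5 on the TPM scale, 137 in DESeq2, 9 with all 18 libraries and 3 to 16 without 1 library. On NCD 0 became 2 without a filter, 8 in DESeq2, 1 with all 18 libraries, 0 to 1 without 1 library and 3 without mice 182 and 183. The TPM scale changed the share of higher genes among those called from 65.4% to 42.3% between genotypes on HFD in liver, from 58.1% to 94.6% between diets in WT fat and from 44.4% to 12.9% between tissues. It moved the median log2 difference of all genes to 0.35 between diets in WT fat, -0.34 between tissues and 0.30 between genotypes on NCD in fat. Depth limits Sp5 (37 to 119 reads), Nkd1 (87 to 193) and Lgr5 (76 to 273) in liver most.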

Other observations

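A further 3 genes of the lists were apart or nearly so between genotypes in HFD livers without being called by limma; they were named after their values were seen. Cyp1a2, a pericentral cytochrome, was at 194 to 434 FPKM in MlklAdi-KO and 144 to 184 FPKM in WT livers, a log2 difference of 0.71 ± 0.20 SE (adjusted p = 0.22, limma). Fzd5, a Frizzled receptor, was at 1.40 to 2.34 FPKM against 0.877 to 1.26 FPKM (0.40 ± 0.10 SE, adjusted p = 0.13, limma). Fzd7, another Frizzled receptor, was at 6.69 to 10.9 FPKM against 5.42 to 7.36 FPKM, with overlap (0.44 ± 0.11 SE, adjusted p = 0.17, limma). DESeq2 called all 3.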
